A study of Mus musculus with 4 samples.

Results

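The genes described here run the unfolded protein response of the endoplasmic reticulum (ER) and the disposal of misfolded proteins from it, called ER-associated degradation (ERAD). They were chosen by name, with earlier results of these data known. A gene belongs when the array files give its symbol to a non-control probe. All 37 named genes had at least 1 probe, 70 probes in all, among 37074 gene names on the array. The RNA came from NIH3T3, a mouse fibroblast line in long use that the labels call dermal fibroblasts, and was read on 1-colour Agilent arrays. All cells received siRNA on apatite nanoparticles (sCA) in medium with 2% serum: a control siRNA in the siControl group (2 arrays) and an siRNA against Timp1, a secreted metalloproteinase inhibitor, in the siTIMP1 group (2 arrays). The dose, the time after transfection and any untransfected cells are not given in the sources used here. The carrier is common to both groups, and nothing says whether the replicates were separate cultures.

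Proteins that enter the ER are folded by chaperones and cross-linked by oxidoreductases, and those that fail to fold are pulled back to the cytosol and degraded by the proteasome. When unfolded protein builds up, 3 membrane sensors respond: Ern1 (IRE1), which splices Xbp1 mRNA, Atf6, which is cut to release a transcription factor, and Eif2ak3 (PERK), which phosphorylates a translation initiation factor and lets Atf4 be made. Fibroblasts secrete collagen and other matrix proteins through this compartment. The members are ordered below as sensors, chaperones, oxidoreductases, ERAD and the PERK arm.

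Levels are log2 of the processed spot signal minus the 75th percentile of the array, and a fold change is siTIMP1 relative to siControl in the same units, given with its standard error (SE) from limma. In the 4 arrays, between 45.9% (siTIMP1 replicate 2) and 52.1% of spots passed the scanner's test for being well above background, and no spot was saturated. All 11 fibroblast markers examined were well above background on all 4 arrays. Of the markers of other cell types, 2 of 6 epithelial, 0 of 4 endothelial and 4 of 5 leukocyte genes were, none of which was called. Timp1 itself fell by 5.22 (SE 0.158, limma adjusted p = 0.0105), to 2.68% of its control level. The arrays lay on 1 slide, with siControl in its positions 1 and 2 and siTIMP1 in 3 and 4, so position and group cannot be told apart, nor can fewer cells of a kind and less RNA per cell.

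Of the 37 members, 35 were tested, each by its brightest tested probe, and each of those probes was well above background on all 4 arrays. Edem1, an ERAD lectin, fell to 33.0% of its control level, and no other member passed an adjusted p of 0.05 in limma. The count was thus 1 of 35 members lower and 0 of 35 higher, beside 0.703% of all 17647 tested genes lower and 0.085% higher. At an unadjusted p under 0.05, 12 members were higher (34.3% of 35, beside 11.9% of all tested genes) and 3 were lower (beside 7.99%). The siTIMP1 arrays both lay above both siControl arrays for 22 members, or 62.9%, beside 31.1% of all tested genes. Both lay below for 5 members, beside 22.9% of all tested genes. The median fold change of the 35 members was 0.24, against 0.03 over all tested genes, and 28 members (80%) had a value above 0, beside 54% of all tested genes.

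**Figure D1:**
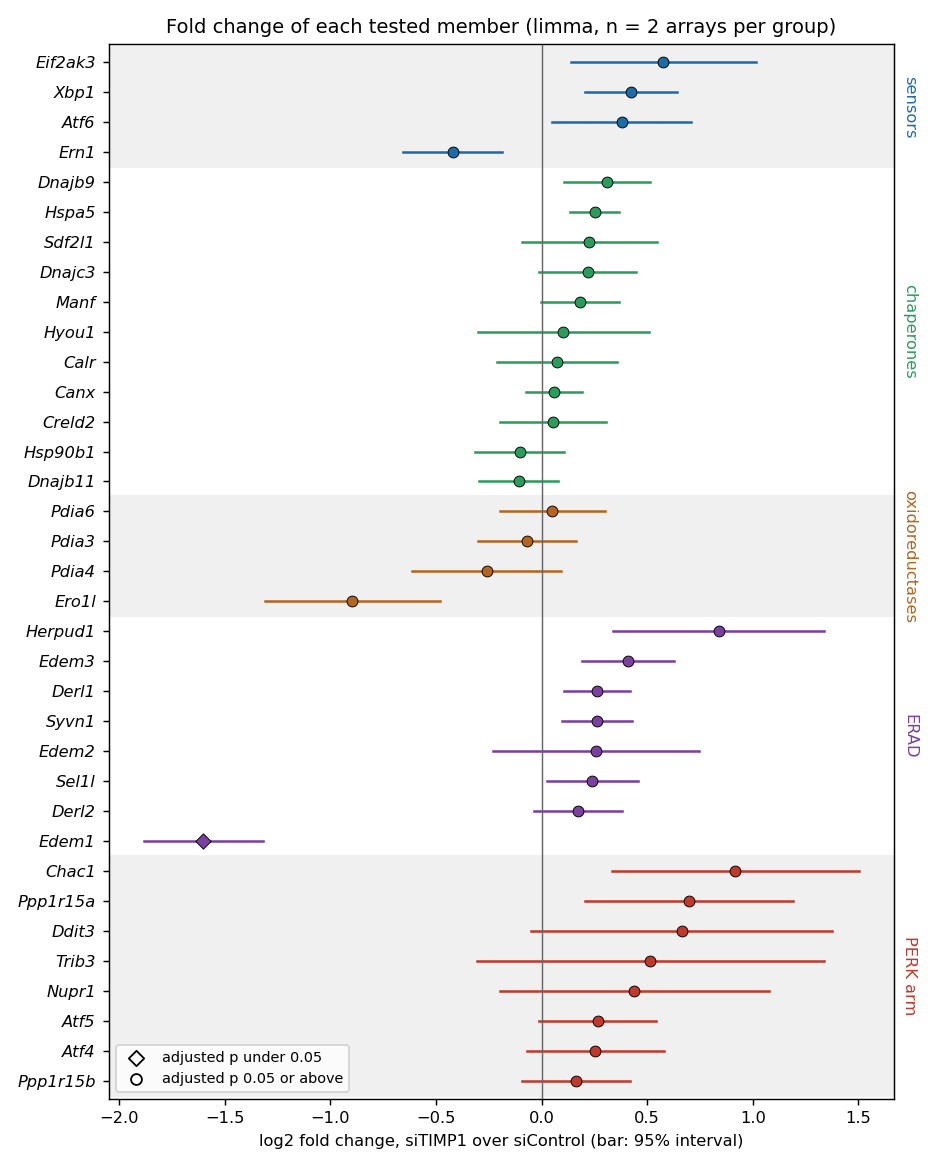
Log2 fold change of siTIMP1 over siControl (x axis) for each of the 35 tested members (y axis), by class, with bars for the 95% interval of limma from 2 arrays a group; a diamond marks an adjusted p under 0.05. Edem1 is the single diamond at -1.60, Ero1l and Ern1 lie to the left with intervals below 0, and all 8 members of the PERK arm lie to the right of 0.

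Among the sensors and the transcription factor Xbp1, 3 genes had higher and 1 had lower values in siTIMP1, with no overlap between groups. Such a lack of overlap was seen in 31.1% of all tested genes on the higher side and in 22.9% on the lower side. None of the 4 passed the adjusted threshold. Ern1, the kinase and endoribonuclease that splices Xbp1, had levels of 0.78 and 0.86 in siControl and of 0.36 and 0.44 in siTIMP1, a fold change of -0.42 (SE 0.092, limma adjusted p = 0.136). Both siTIMP1 arrays were low and the siControl arrays lay close together. A separate Ern1 probe, on the RefSeq transcript, had -0.47 (limma adjusted p = 0.159), and 3 further probes for other transcripts were well above background on no array. Ern1 kept its sign under all 14 alternatives, from -0.47 to -0.35, with a call in none.

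Xbp1, the transcription factor whose mRNA is cut by Ern1, had levels of 5.26 and 5.03 in siControl and of 5.57 and 5.56 in siTIMP1, a fold change of 0.42 (SE 0.086, limma adjusted p = 0.123). Its other tested probes had 0.62 (limma adjusted p = 0.0584) and 0.47 (0.0944), so that all 3 probes were higher in siTIMP1 without overlap. The files assign all 3 to the same transcript, and the spliced form was not told apart from the unspliced one. Xbp1 and Ern1 thus had fold changes of opposite sign.

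Eif2ak3, the PERK kinase, had 1.45 and 0.96 in siControl and 1.78 and 1.79 in siTIMP1, a fold change of 0.58 (SE 0.170, limma adjusted p = 0.195). Its other tested probe, at chr6:70814739-70814798 (mm9) and assigned to a cDNA clone, had 0.07. Atf6, the sensor that travels to the Golgi to be cut, had 1.27 and 0.95 in siControl and 1.45 and 1.53 in siTIMP1, a fold change of 0.38 (SE 0.129, limma adjusted p = 0.231). In Eif2ak3, Atf6 and Xbp1 siControl replicate 2 was the lowest of the 4 arrays, below siControl replicate 1 by 0.49, 0.32 and 0.23.

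Chaperones differed little between the groups, and none of the 11 passed. Hspa5 (BiP), the ER member of the heat shock 70 family, had levels of 7.23 and 7.25 in siControl and of 7.53 and 7.45 in siTIMP1, a fold change of 0.25 (SE 0.045, limma adjusted p = 0.105). The groups did not overlap, and the siControl arrays differed by 0.02. Its other 2 probes had 0.18 and 0.01, the latter with overlap. Dnajb9, a co-chaperone of BiP, had 1.93 and 2.03 in siControl and 2.25 and 2.33 in siTIMP1, a fold change of 0.31 (SE 0.080, limma adjusted p = 0.168), and 0.36 at its second probe.

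Hsp90b1 (GRP94), the ER form of heat shock protein 90, had levels of 7.46 and 7.64 in siControl and of 7.38 and 7.52 in siTIMP1, and the groups overlapped. Its fold change was -0.10 with a 95% interval from -0.32 to 0.11. The lectin chaperones that hold glycoproteins during folding were also near 0, Calr at 0.07 (interval -0.21 to 0.36) and Canx at 0.06 (interval -0.08 to 0.19). For Canx a second probe read 0.31 with no overlap (limma adjusted p = 0.0988), so its 2 probes differ. The other chaperones lay between -0.11 (Dnajb11, a co-chaperone of BiP) and 0.23 (Sdf2l1, which works with it), with Dnajc3, an inhibitor of PERK, at 0.22 and the secreted factor Manf at 0.18. Creld2, a secreted ER stress protein, had 0.05 and Hyou1, the large ER chaperone that recharges BiP, had 0.10.

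The median of the 11 chaperones was 0.10. At an unadjusted p under 0.05 there were 2 higher (18.2%, beside 11.9% of all tested genes) and 0 lower (beside 7.99%). Without overlap between groups, 5 were higher (45.5%, beside 31.1% of all tested genes) and 1 was lower (beside 22.9%). In 9 of the 11 siControl replicate 1 was the lowest array, and for 7 of the 11 the gap between the siControl arrays was wider than the fold change. Over all 17647 tested genes, siControl replicate 1 was the lowest array for 5009, and the gap was the wider for 46.4%. Leaving out siControl replicate 1 gave a median of 0.02, and leaving out siControl replicate 2 gave 0.22.

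Many chaperone genes are known to carry the ER stress response element (ERSE), which binds cleaved ATF6 and XBP1, in their promoters. RefSeq promoter windows (GRCm38.p6), here the 250 bases before the start, were on hand for 32 of the 37 members. The 19-letter ERSE, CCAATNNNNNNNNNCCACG on either strand, was present in 10 of these 32 genes, beside 0.113% of all 32851 windows of the same length. The matches of tested members are shown because they let a reader set the shared element beside the fold changes of these genes. Positions count back from the start, capitals mark the fixed letters, and a match on the opposite strand reads from CGTGG to ATTGG.
Hspa5 at -65 to -47: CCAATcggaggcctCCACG
Hsp90b1 at -212 to -194: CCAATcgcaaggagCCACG
Hsp90b1 at -107 to -89: CGTGGtgaggcacgATTGG
Calr at -162 to -144: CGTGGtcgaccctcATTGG
Canx at -145 to -127: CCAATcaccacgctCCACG
Dnajc3 at -105 to -87: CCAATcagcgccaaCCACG
Creld2 at -126 to -108: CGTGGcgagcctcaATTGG
Pdia6 at -98 to -80: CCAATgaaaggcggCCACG
Syvn1 at -44 to -26: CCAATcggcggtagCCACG

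The 8 tested members with an ERSE had a median fold change of 0.07, and 7 of the 8 were above 0, beside 54% of all tested genes. They ranged from -0.10 in Hsp90b1, which has 2 matches, to 0.26 in Syvn1. Calr, Creld2 and Pdia6 had -0.080, -0.084 and -0.090 without siControl replicate 1. Without siControl replicate 2 these 3 had 0.225, 0.193 and 0.191. Derl3 and Ero1lb, the other 2 with a match, were not well above background on both arrays of either group and were not tested. The shorter UPRE, TGACGTGG, was in the windows of 0 of the 32 genes and in 0.563% of all windows. A match is a description of the sequence, and a window without one says nothing of the factor. The search took only exact fixed letters, so near matches to an element were not counted. The Hspa5 window is printed whole, with its exact ERSE match in capitals.
Hspa5 (chr2:34771840-34772089, plus strand): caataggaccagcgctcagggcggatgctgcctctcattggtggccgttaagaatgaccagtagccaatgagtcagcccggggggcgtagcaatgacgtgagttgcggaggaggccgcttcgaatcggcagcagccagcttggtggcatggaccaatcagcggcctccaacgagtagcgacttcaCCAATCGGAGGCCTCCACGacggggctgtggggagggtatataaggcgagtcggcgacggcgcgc

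Oxidoreductases form disulfide bonds, and 4 of the 5 were tested. Ero1l (ERO1 alpha), the oxidase that recharges protein disulfide isomerase, had levels of 3.95 and 3.47 in siControl and of 2.81 and 2.82 in siTIMP1. The siTIMP1 arrays were low and nearly equal, while the siControl arrays differed by 0.47. The fold change was -0.90 (SE 0.161, 95% interval -1.31 to -0.48, limma adjusted p = 0.105), to 53.8% of the control level. It was read by 1 probe, at chr14:45902895-45902954 (mm9). The value was -0.66 without siControl replicate 1 (limma adjusted p = 0.0139) and -1.13 without replicate 2 (0.0126), where the gene's own spread is that of the siTIMP1 pair, which differed by 0.01.

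The disulfide isomerases among the members had values nearer 0. Pdia6 had 7.27 and 7.55 in siControl and 7.49 and 7.43 in siTIMP1, so that both siTIMP1 arrays lay between the siControl arrays, and its fold change was 0.05 (SE 0.097). Pdia3, which works with Calr and Canx, had -0.07 at this probe and -0.09 at its second. Pdia4 had -0.26 (SE 0.137, limma adjusted p = 0.372). Ero1lb, the other ERO1 gene, had 2 probes, 1 of them well above background on 1 array and the other on none, and was not tested. The median of the 4 tested members was -0.16, with -0.30 without siControl replicate 1 and -0.03 without replicate 2.

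ERAD held the single call. Edem1, which takes misfolded glycoproteins out of the folding cycle, had levels of 1.27 and 1.34 in siControl and of -0.19 and -0.40 in siTIMP1. Its processed signals were 448 and 460 in siControl and 166 and 144 in siTIMP1. The siControl arrays differed by 0.07 and the siTIMP1 arrays by 0.21, far less than the gap between groups. Edem1 thus fell by 1.60 (SE 0.110, limma adjusted p = 0.0225), with a 95% interval from -1.88 to -1.32. This probe is at chr6:108808920-108808979 (mm9).

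A second Edem1 probe, at chr6:108804262-108804321 (mm9) and assigned to the same mRNA, had levels of -0.39 and -0.42 in siControl and of -2.21 and -2.00 in siTIMP1. It fell by 1.70 (SE 0.131, limma adjusted p = 0.0249). The fall of Edem1 was thus read at 2 positions of the transcript with like size. Its value stayed between -1.71 and -1.32 over 14 alternatives and was called in 11, and the adjusted p was 0.137 without siTIMP1 replicate 1, 0.187 without siTIMP1 replicate 2 and 0.133 without a variance trend. Under each of these 3 settings no gene passed in limma.

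The Edem1 window of 250 bases, shown because it is the member that fell, held none of the motifs searched, ERSE, ERSE-II (ATTGGNCCACG), UPRE or CARE (TGATGNAA).
Edem1 (chr6:108828391-108828640, plus strand): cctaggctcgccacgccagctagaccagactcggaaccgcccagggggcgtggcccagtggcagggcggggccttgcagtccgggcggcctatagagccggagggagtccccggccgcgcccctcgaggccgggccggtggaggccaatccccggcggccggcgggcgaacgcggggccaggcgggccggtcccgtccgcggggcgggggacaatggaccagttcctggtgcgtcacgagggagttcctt

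Its relatives Edem2 and Edem3 were not called. Edem3 had 0.72 on both siControl arrays and 1.17 and 1.09 in siTIMP1, a fold change of 0.41 (SE 0.085, limma adjusted p = 0.126). Its other tested probes differed in sign, with 1.97 (SE 0.622) and -0.31 (SE 0.471), and the siTIMP1 arrays differed by over 1 at each of these dim probes. Edem2 had 0.26 at 1 probe and -0.23 at the other, neither at an unadjusted p under 0.05.

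Herpud1, a membrane protein that brings together the ERAD complex, had levels of 3.23 and 2.67 in siControl and of 3.69 and 3.89 in siTIMP1, a fold change of 0.84 (SE 0.196, limma adjusted p = 0.148). Its second probe had 0.82 at the same adjusted p. The groups did not overlap at either probe, although the siControl arrays differed by 0.56. Without siControl replicate 1 the value was 1.12 (limma adjusted p = 0.00986), and without siControl replicate 2 it was 0.56 (0.0817), both with the gene's own spread taken from the siTIMP1 pair. Its promoter window is shown because Herpud1 was the 1 gene of the 32 with a window that held the ERSE-II, which 0.0304% of all windows had, and it also held a CARE, the element bound by ATF4 with partner factors. The CARE lies upstream on the opposite strand (TTGCATCA) and the ERSE-II (ATTGGGCCACG) nearer the start, both in capitals.
Herpud1 (chr8:94386179-94386428, plus strand): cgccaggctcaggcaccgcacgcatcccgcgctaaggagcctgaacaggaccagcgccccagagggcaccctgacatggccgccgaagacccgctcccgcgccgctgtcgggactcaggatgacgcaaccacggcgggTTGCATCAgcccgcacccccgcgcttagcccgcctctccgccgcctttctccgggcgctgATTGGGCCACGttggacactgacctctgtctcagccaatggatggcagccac

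The channel and ubiquitin ligase of ERAD had small values of 1 sign. Syvn1 (HRD1), the ligase, had 4.84 and 4.91 in siControl and 5.08 and 5.19 in siTIMP1, a fold change of 0.26 (SE 0.065, limma adjusted p = 0.159). Sel1l, its partner, had 4.23 and 4.05 against 4.42 and 4.34, a fold change of 0.24 (limma adjusted p = 0.236), while its siControl arrays differed by 0.18. Derl1, a channel protein, had 3.33 and 3.31 against 3.57 and 3.60, a fold change of 0.26 (SE 0.061, limma adjusted p = 0.148). Derl2 had 0.17, and Derl3 was well above background on no array and was not tested. Among the 8 tested ERAD members 7 had higher siTIMP1 arrays without overlap and 1, Edem1, lower, beside 31.1% and 22.9% of all tested genes. Their median was 0.26, from 0.23 to 0.30 with any 1 array left out.

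**Figure D2:**
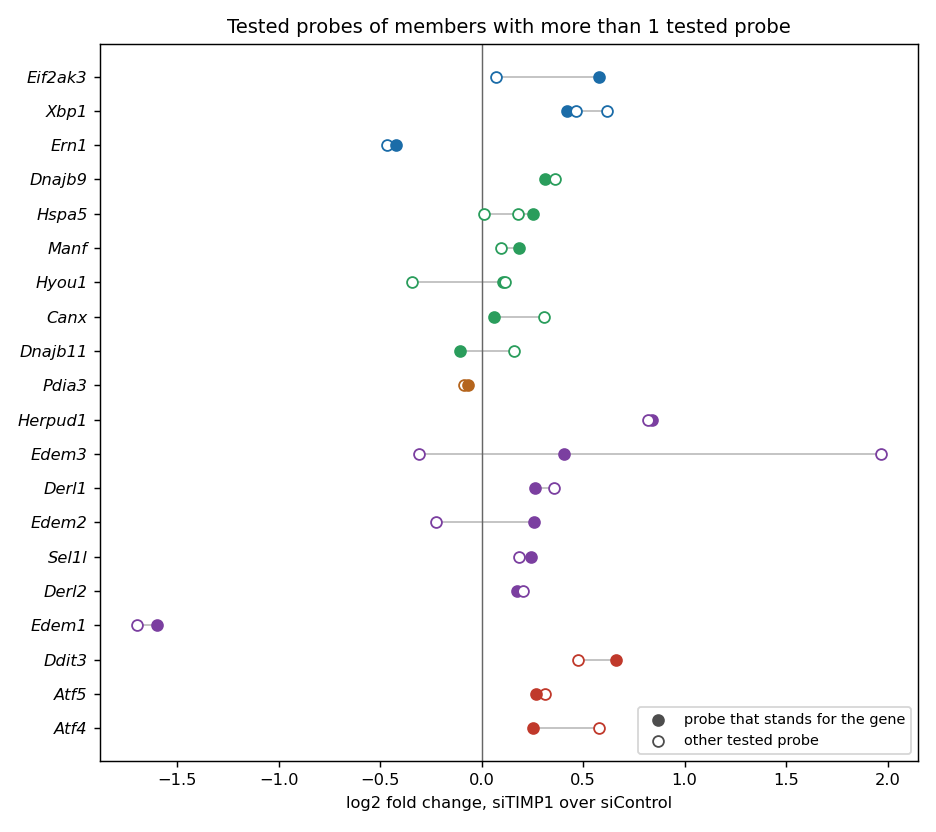
Log2 fold change of siTIMP1 over siControl (x axis) at each tested probe of the 20 members with more than 1 tested probe (y axis); filled points stand for the gene and open points are its other probes. The probes had 1 sign in 16 of the 20, among them both Edem1 probes near -1.6 and -1.7, while Edem2, Edem3, Dnajb11 and Hyou1 have probes on both sides of 0.

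In the PERK arm, which carries the signal of Eif2ak3 through Atf4, all 8 members had values above 0, beside 54% of all tested genes. Their median was 0.48, and none passed. Chac1, a glutathione-degrading enzyme and Atf4 target, had levels of 5.15 and 4.44 in siControl and of 5.69 and 5.74 in siTIMP1, a fold change of 0.92 (SE 0.228, limma adjusted p = 0.159). Ppp1r15a (GADD34), which restores translation, had 4.53 and 3.96 against 4.87 and 5.02, a fold change of 0.70 (SE 0.192, limma adjusted p = 0.180). These 2 genes were higher at an unadjusted p under 0.05 (25% of the 8, beside 11.9% of all tested genes). The siTIMP1 arrays were high in both, while the siControl arrays differed by 0.71 in Chac1 and by 0.57 in Ppp1r15a. Without siControl replicate 2 the fold changes of Chac1 and Ppp1r15a were 0.565 and 0.415. Without siControl replicate 1 they were 1.271 and 0.983.

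Atf4 itself had levels of 8.31 and 7.93 in siControl and of 8.39 and 8.36 in siTIMP1, a fold change of 0.25 (SE 0.126, limma adjusted p = 0.349), and 0.58 at its second probe. Without siControl replicate 1 the value was 0.45, and without siControl replicate 2 it was 0.06. The factor is controlled mainly through translation, which these arrays do not read. Ppp1r15b, the constitutive relative of Ppp1r15a, had 0.16 and Atf5, a factor related to Atf4, 0.27. Without siControl replicate 2 these were 0.06 and 0.11.

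The values of Trib3, Ddit3 and Nupr1, singled out after they were seen, also moved with siControl replicate 2. Trib3, a pseudokinase that damps Atf4, had levels of 4.99 and 3.99 in siControl and of 5.02 and 4.99 in siTIMP1, so that siControl replicate 1 lay at the level of the siTIMP1 arrays. Ddit3 (CHOP), a factor linked to cell death, had 2.20 and 1.34 against 2.41 and 2.45. Nupr1, a small stress-induced nuclear protein, had 5.32 and 4.54 against 5.36 and 5.39. Their fold changes were 0.51, 0.66 and 0.44 on all arrays, and 0.01, 0.24 and 0.05 without siControl replicate 2.

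Across the PERK arm siControl replicate 2 was the lowest array for 8 of 8 members, and it lay below siControl replicate 1 by a median of 0.64, while siTIMP1 replicate 1 minus replicate 2 had a median of -0.05. The difference between the siControl arrays exceeded the difference between groups for 6 of the 8, beside 46.4% of all tested genes, and siControl replicate 2 was the lowest array for 4862 of the 17647. The class median became 0.91 on leaving out siControl replicate 1 and 0.09 on leaving out siControl replicate 2. In the chaperones the siControl arrays differed the opposite way, replicate 1 being lower by a median of 0.13. What sets the siControl arrays apart was not tested.

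**Figure D3:**
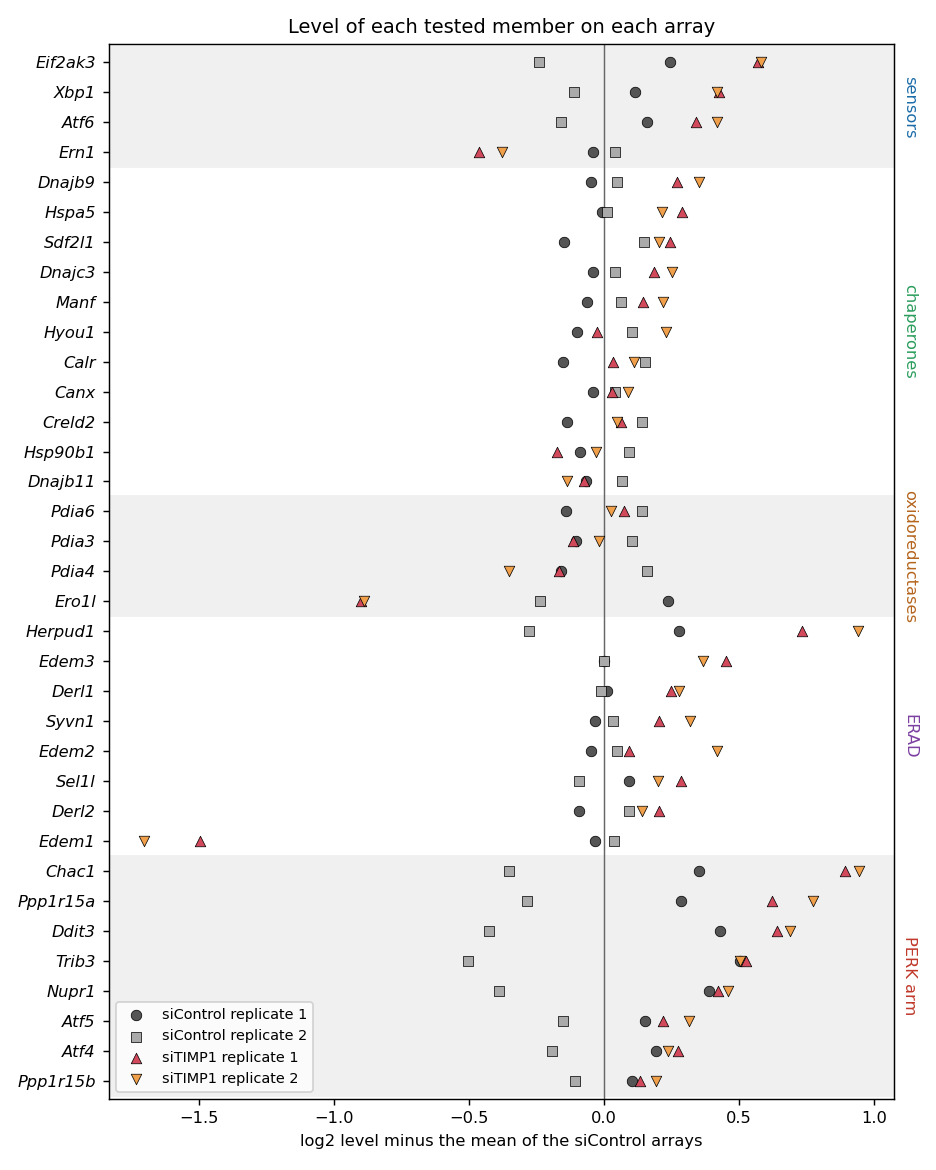
Log2 level of each tested member (y axis) on each of the 4 arrays, minus the mean of the siControl arrays (x axis); circles and squares are siControl, triangles siTIMP1. The siControl squares (replicate 2) lie left of the circles for all 8 members of the PERK arm and right of them for all 11 chaperones, and the siTIMP1 points of Edem1 stand alone at the far left.

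Chac1 and Nupr1 are shown with Herpud1 as the 3 genes of these 32 whose windows held a CARE, which 3.45% of all windows had, on the opposite strand and in capitals (TTGCATCA). Their fold changes were 0.92, 0.44 and 0.84, and 0.57, 0.05 and 0.56 without siControl replicate 2. The PERK arm genes whose windows held no CARE ran from 0.25 (Atf4) to 0.70 (Ppp1r15a).
Chac1 (chr2:119350992-119351241, plus strand): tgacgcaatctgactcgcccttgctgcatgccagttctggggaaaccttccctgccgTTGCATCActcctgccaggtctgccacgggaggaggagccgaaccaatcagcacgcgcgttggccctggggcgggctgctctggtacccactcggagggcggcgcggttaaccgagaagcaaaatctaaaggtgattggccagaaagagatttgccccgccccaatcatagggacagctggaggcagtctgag
Nupr1 (chr7:126625471-126625720, minus strand): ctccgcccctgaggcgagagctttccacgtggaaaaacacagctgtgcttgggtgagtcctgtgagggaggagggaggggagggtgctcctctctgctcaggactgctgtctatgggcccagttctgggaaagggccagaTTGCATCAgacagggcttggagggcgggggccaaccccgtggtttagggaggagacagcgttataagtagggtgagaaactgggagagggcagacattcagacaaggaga

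With siTIMP1 set against a single siControl array, the calls among the members changed. Without siControl replicate 1, 11 members were called higher, beside 2.31% of all tested genes, and 2 lower, beside 3.64%. The 11 were Atf4, Atf5, Atf6, Chac1, Ddit3, Eif2ak3, Herpud1, Nupr1, Ppp1r15a, Trib3 and Xbp1, and the 2 were Edem1 and Ero1l. Without siControl replicate 2, Chac1 was called higher (0.57, limma adjusted p = 0.0241), beside 0.51% of all tested genes, and Edem1 and Ero1l lower, beside 1.18%. In both of these fits the siControl group is a lone array that is assumed to vary like the siTIMP1 pair, so the calls do not include the spread between the siControl arrays. Leaving out siTIMP1 replicate 1 or replicate 2 gave no called member and no called gene in limma. The median fold change of the 35 tested members was then 0.231 and 0.205, beside 0.025 and 0.029 over all tested genes.

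**Figure D4:**
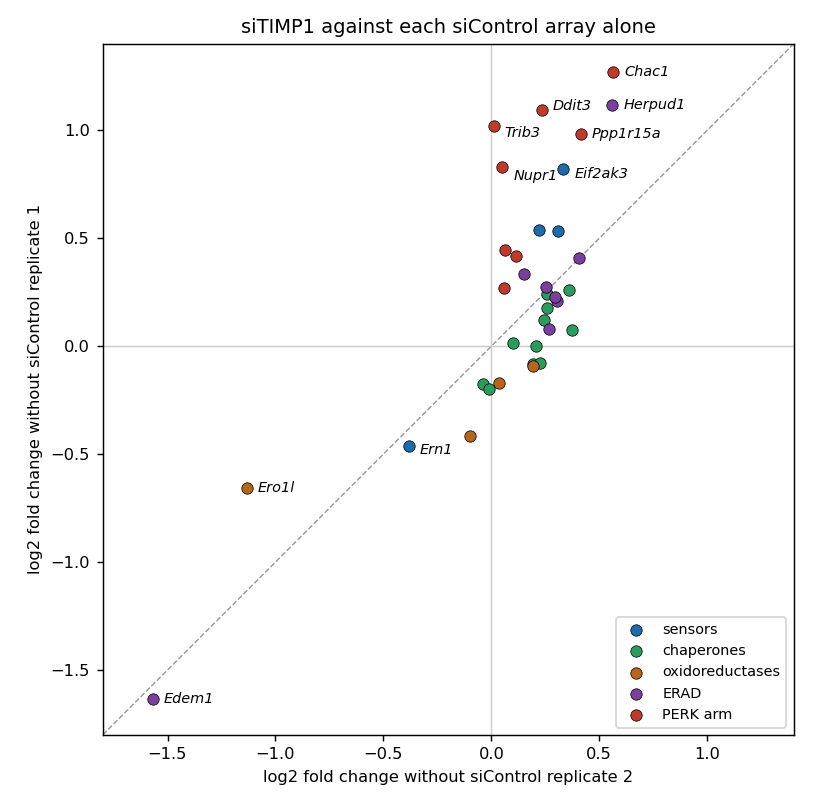
Log2 fold change of each tested member without siControl replicate 2 (x axis) against that without siControl replicate 1 (y axis), coloured by class, with the line of equal values dashed. Edem1 lies near the line at -1.57 and -1.64, while Trib3 (0.01 and 1.02) and Nupr1 (0.05 and 0.83) lie far above it.

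A further 75 genes of the same pathways had a probe, and 72 of them were tested. Of these 72, 1 was called higher and 1 lower, beside 0.085% and 0.703% of all tested genes. An unadjusted p under 0.05 was reached by 18 with higher values, beside 11.9% of all tested genes, and by 5 with lower values, beside 7.99%. Their median was 0.12. Atf3, a stress-induced factor of the integrated stress response, had 0.08 and -0.03 in siControl and 0.98 and 1.11 in siTIMP1 and rose by 1.02 (SE 0.10, limma adjusted p = 0.0336). Its siControl arrays differed by 0.10, and it was called in 11 of 14 alternatives. Fkbp2, an ER prolyl isomerase, had 4.11 and 4.13 against 3.63 and 3.62 and fell by 0.49 (SE 0.057, limma adjusted p = 0.0479), a call made in 7 of 14 alternatives and lost, among others, with normexp background correction (-0.46) and with the authors' value table (-0.50).

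The next in order of p did not pass. March6, an ERAD ubiquitin ligase, had -0.71 (limma adjusted p = 0.0736) with its second probe above 0, Ube2j2, an ERAD ubiquitin-conjugating enzyme, had -0.43 (0.105) and the thioredoxin-like Tmx3 -0.38 (0.234). On the higher side were the disulfide isomerase Txndc5 with 0.29 (limma adjusted p = 0.130), the membrane-bound factor Creb3 with 0.35 (0.136) and Mbtps1, the protease that cuts Atf6, with 0.28 (0.149), where 1 of 4 probes was below 0. The 14 further genes of the integrated stress response had a median of 0.22. That median was 0.33 without siControl replicate 1 and 0.13 without replicate 2. For 11 of these 14, siControl replicate 2 was the lowest array, beside 4862 of all 17647 tested genes. Further ERAD genes had a median of 0.07 over 22, further sensors 0.12 over 11, further chaperones and lectins 0.12 over 11, and further oxidoreductases and isomerases 0.09 over 14.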

How the data were processed

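Total RNA of 4 samples carried Cy3 label and was read on 1-colour arrays; the submitters' processing notes name Agilent Feature Extraction 11.5.1.1. Spot intensity was deposited by the authors as scanner output; per the file headers, the processed intensity has had a spatial background trend and a multiplicative trend removed within each array, and probe coordinates are mm9. The authors' deposited value table holds log2 values that equal the log2 processed intensity minus 1 constant per array (6.90 to 6.96); it served as an alternative.

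Here each array's log2 intensity was centred on its 75th percentile, taken across all spots other than controls. Control spots and 136 to 250 outlier spots per array were left out, and replicate spots were averaged per probe. Testing covered 26015 of 56605 probes (17647 genes), those that 1 or both groups showed well above background on each of their arrays. Groups came from the titles; replicate numbers follow accession order. limma 3.58.1 in R 4.3.3 (lmFit, eBayes with a trend) was fitted to all tested probes, with Benjamini-Hochberg adjustment over them and a threshold of 0.05, and checked on simulated data, where the share of false calls was above the nominal level, so adjusted p-values just under 0.05 are weaker than they read. A gene is its brightest tested probe. With 2 arrays a group, their number limits the precision, and p-values reflect the spread among these samples alone, which could be technical.

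Members and lists were chosen with earlier results of these data known. Levels on all arrays are given for members called or at an unadjusted p under 0.05, for the sensors and for the brightest member of each class; of further genes, those called and the 3 of smallest p per direction are named. Promoter windows come from RefSeq (GRCm38.p6). Alternatives were normexp (offset 50), quantile and detected-probe scaling, other filters, variance models and thresholds, outlier spots kept, the value table, the mean of a gene's probes and leaving out each array. Exon and UTR annotation of the probes was not used here. Figures were drawn with matplotlib 3.10.9.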

Additional observations from a re-analysis of the deposited data

How the results depend on the processing

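Timp1 was -5.22 (adjusted p = 0.133) without a variance trend and lay between -5.41 and -5.04 with 1 array left out. Members higher numbered 0, but 12 at an unadjusted p under 0.05 and 0 to 11 with 1 array left out. Members lower numbered 1, but 2 with no filter, 0 without a trend, 3 at an unadjusted p under 0.05 and 0 to 2 with 1 array left out. Further genes higher numbered 1, but 0 without a trend, 18 at the unadjusted threshold and 0 to 6 with 1 array left out. Further genes lower numbered 1, but 0 with normexp, without a trend, with outlier spots kept, with the authors' table, with all probes of a gene averaged or with a 2-fold minimum, 2 with no filter or with the looser adjusted threshold of 0.1, 5 by unadjusted p and 0 to 3 with 1 array left out. With 1 array left out, class medians ran from 0.017 to 0.225 in chaperones, -0.295 to -0.032 in oxidoreductases and 0.088 to 0.906 in the PERK arm. Among single members 464 of the values under alternatives kept sign and side of the threshold, 15 gained and 3 lost a call and 8 changed sign, none of these called. The 8 were Creld2 with quantile normalization (-0.012), Dnajb11 (0.026) and Hyou1 (-0.042) with all probes of a gene averaged, and, with 1 array left out, Calr (-0.080 to 0.225), Creld2 (-0.084 to 0.193), Hyou1 (-0.026 to 0.231), Pdia3 (-0.172 to 0.036) and Pdia6 (-0.090 to 0.191). For all of these the cause was not tested. With 1 array left out, the lone array of its group is assumed to vary like the other group's pair. The median of all genes moved from 0.025 to between -0.017 and 0.040. A slide term could not be fitted with all arrays on 1 slide. No paired analysis was possible because replicate numbers are absent from the labels. Members not well above background, Derl3 and Ero1lb, could not be compared.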
